A study of Mus musculus with 4 samples.

Results

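The genes described here are those of the IL-17 cytokines and of their receptor subunits, taken by symbol from a fixed list of 10: the cytokine genes Il17a, Il17b, Il17c, Il17d, Il17f and Il25, and the receptor genes Il17ra, Il17rb, Il17rc and Il17re. All 10 were found among the 50600 genes of each deposited count table, of which 21764 are annotated as protein-coding. RNA was sequenced from 4 libraries of T helper 17 (Th17) cells, primary cells of the C57BL/6NJ mouse strain that were differentiated in culture from CD4 T cells. The labels name no genotype, agent or further treatment, and give age as unknown and sex as not collected. The libraries are numbered as biological replicates 1 to 4 under 1 donor entry, and the header of each table names a 24 hour sample. There was 1 group and no control, so the levels of the family are compared with each other within a library and with a fixed level. All p-values apply to these libraries only, and those of the level and variation tests also draw on the spread of other genes.

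The IL-17 cytokines are secreted as dimers and act mainly on epithelial cells and fibroblasts at barrier surfaces, which then attract neutrophils. IL-17A and IL-17F, the cytokines that define Th17 cells, are bound by a receptor of IL-17RA with IL-17RC, whereas IL-17C uses IL-17RA with IL-17RE and IL-25 (also called IL-17E) uses IL-17RA with IL-17RB. IL-17RA is thus the shared subunit, and the second subunit sets which ligand is recognised. The receptors recruit the adaptor Act1, encoded by Traf3ip2, which passes the signal to TRAF proteins and NF-kappaB and prolongs the life of target mRNAs.

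The windows upstream of the start sites are shown for Il17f and Il17a, the expressed cytokine genes, and for Il17c, a cytokine gene with almost no transcript in these cells. Each holds the 250 bases before the RefSeq start site (GRCm38.p6), 5′ to 3′ on the strand of the gene, and capitals mark 3 motifs searched on both strands: TGANTCA (the AP-1 site), AGGTCA (the half-site of nuclear receptors such as RORα) and TATAAA (the TATA box). Where motifs overlapped, all their letters would be in capitals.
Il17f (chr1:20784271-20784520, minus strand): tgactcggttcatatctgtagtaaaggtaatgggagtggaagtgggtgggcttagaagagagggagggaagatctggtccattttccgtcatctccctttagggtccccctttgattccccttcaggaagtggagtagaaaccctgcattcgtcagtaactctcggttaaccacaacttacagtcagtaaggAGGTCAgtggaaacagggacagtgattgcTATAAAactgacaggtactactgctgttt
Il17a (chr1:20730655-20730904, plus strand): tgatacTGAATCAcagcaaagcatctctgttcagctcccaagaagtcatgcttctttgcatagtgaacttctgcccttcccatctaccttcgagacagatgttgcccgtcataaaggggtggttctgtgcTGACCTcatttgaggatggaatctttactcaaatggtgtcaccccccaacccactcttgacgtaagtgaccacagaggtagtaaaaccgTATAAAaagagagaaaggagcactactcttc
Il17c (chr8:122421770-122422019, plus strand): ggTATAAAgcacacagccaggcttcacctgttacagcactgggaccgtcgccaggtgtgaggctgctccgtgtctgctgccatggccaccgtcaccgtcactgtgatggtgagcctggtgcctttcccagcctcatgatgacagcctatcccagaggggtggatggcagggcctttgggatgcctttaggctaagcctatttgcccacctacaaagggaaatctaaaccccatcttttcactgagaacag
In Il17f, TATAAA lay at positions -29 to -24 counted from the start site and AGGTCA at -58 to -53. In Il17a, TATAAA lay at -31 to -26, the reverse complement of AGGTCA at -120 to -115 and TGAATCA, which matches TGANTCA, at -244 to -238. In Il17c the single TATAAA lay at the far end, at -248 to -243. Over 32851 RefSeq promoter windows of the same length, 12.4% held TATAAA anywhere, 14.0% held AGGTCA, 6.75% held TGANTCA, and 1.75% held TATAAA on the gene's strand between -35 and -20, where it stands in Il17f and Il17a. Among the other members, windows were at hand for Il17d, Il17rb, Il17rc and Il17re. TATAAA and AGGTCA were in none of these 4, and TGANTCA was in that of Il17rb. Also searched were TTCNNNGAA (the STAT site), which 7.02% of all windows and none of the 7 members' windows held, and GGAAA (the core of the NFAT site), which 55.6% of all windows held and which occurred in those of Il17f, Il17c, Il17d, Il17rc and Il17re. The Il17f, Il17a and Il17c windows had 47.2%, 46.0% and 56.0% G and C, against a median of 52.4% over all windows, and annotated exons cover 26 bases of the Il17f window and none of the other 2. The counted gene of Il17f reaches upstream of this RefSeq start, to base 20790617, so the Il17f window lies inside the counted gene. The Il17a and Il17c windows end just before their counted genes. Exons cover 250 of the 250 bases of the Il17re window, 124 of the Il17rb window, 28 of the Il17rc window and 0 of the Il17d window. A match is a description of letters and not of binding.

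The libraries held 19332509 to 48558772 counts of read pairs, and replicate 2 was the shallowest. Replicates 1 and 2 contained transcripts of the Y-linked genes Ddx3y, Uty, Kdm5d and Eif2s3y, summing to 147 and 144 TPM (counts scaled for exon length and depth), whereas replicates 3 and 4 held 0.454 and 0.295 TPM of them. The reverse was true of Xist, the RNA of the inactive X chromosome, at 0.916 and 1.01 TPM in replicates 1 and 2 and 154 and 152 TPM in replicates 3 and 4. The libraries thus differ in sex-linked transcripts although the labels give 1 donor entry, and values within each pair of libraries are set beside the results where they bear on them. The counts of each of the 6 pairs of libraries differed beyond counting noise, with a chi-square per degree of freedom of 3.63 to 8.91, so no library is a copy of another. Of 10 Th17 and CD4 T cell markers, 9 lay above 1 TPM by the test described below, beside 45.9% of all protein-coding genes. Trac, the constant gene of the αβ T cell receptor (1163 ± 13.2 TPM, SD, n = 4), was outside that test. The 7 markers of γδ T cells, which also make IL-17, summed to 1.57 to 2.32 TPM, with Tcrg-C2 and Tcrg-C4 at 0 counts. Sox13 was the highest at 1.08 ± 0.109 TPM. Next was Trdc, the constant gene of the δ chain, at 0.820 ± 0.244 TPM, on 51, 18, 36 and 28 counts. The 5 markers of innate lymphoid and natural killer cells summed to 1.80 to 2.60 TPM, mostly Kit at 1.77 ± 0.200 TPM, with Ncr1 and Klrb1c at 0 counts. Markers of other helper T lineages numbered 7, of which 5 lay below 1 TPM, beside 51.5% of all protein-coding genes. Tbx21, the Th1 transcription factor, stood at 26.6 ± 0.642 TPM and Gata3, the Th2 factor, at 3.78 ± 0.790 TPM. Markers of myeloid cells (7), B cells (4) and stroma (4) summed to no more than 0.326, 0.586 and 0.205 TPM in any library, and the 5 epithelial markers to no more than 2.07 TPM, mostly Epcam at 1.54 ± 0.177 TPM. In bulk RNA, fewer cells that express a gene and less RNA of it per cell cannot be told apart.

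Il17f was by far the most abundant transcript of the family. Il17f (ENSMUSG00000041872.9; mm10 chr1:20777146-20790617, minus strand) encodes a secreted cytokine of neutrophil recruitment. It had 13714, 4577, 10543 and 15334 counts, or 557, 391, 501 and 521 TPM, in replicates 1 to 4. Replicate 2 was low and the other three lay close together, and even the lowest value placed the gene among the abundant transcripts of the cell. Its mean of 492 ± 71.4 TPM (SD, n = 4) ranked 300th of 21764 protein-coding genes.

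Il17a (ENSMUSG00000025929.4; mm10 chr1:20730905-20734496, plus strand), the gene of the founding cytokine of the family, had 760, 276, 502 and 835 counts, or 53.3, 40.7, 41.2 and 49.0 TPM. Replicates 2 and 3 were low and replicates 1 and 4 high, so that here too the shallowest library had the lowest value. The mean of 46.0 ± 6.13 TPM (SD, n = 4) ranked 3993rd. In replicates 1 and 2, with Y-linked transcripts, Il17f averaged 474 TPM and Il17a 47.0 TPM, and in replicates 3 and 4, without them, 511 and 45.1 TPM. For both genes the gap between the pairs was smaller than that between replicates 1 and 2 (Il17f 557 and 391 TPM, Il17a 53.3 and 40.7 TPM). For Il17f it exceeded the gap between replicates 3 and 4, at 501 and 521 TPM. For Il17a it did not, with replicates 3 and 4 at 41.2 and 49.0 TPM.

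Il17f exceeded Il17a in every library. The ratio of Il17f to Il17a was 10.5, 9.60, 12.2 and 10.6 in TPM in replicates 1 to 4, a mean of 10.7 ± 1.07 (SD, n = 4), so that Il17f made up 90.6% to 92.4% of the TPM of the pair. On the log2(TPM + 1) scale the difference of Il17f minus Il17a was 3.39 ± 0.14 (SD, n = 4), positive in 4 of 4 libraries. A two-sided, exact permutation test by sign flips gave p = 0.13, or 0.150 after Benjamini-Hochberg adjustment over the 6 pairs of members compared. This p, 2 of the 16 possible sign assignments, is the smallest that 4 libraries allow, so no difference within libraries could pass 0.05. The size of the ratio depends on the length used: the deposited exon length of Il17f, 2022 bases, merges all annotated transcripts, whereas its longest coding transcript has 1178 bases, about that of Il17a (1171 bases). With those lengths the ratio was 17.9, 16.5, 20.9 and 18.3, a mean of 18.4 ± 1.83, close to the ratio of raw counts, 18.5 ± 1.84.

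**Figure D1:**
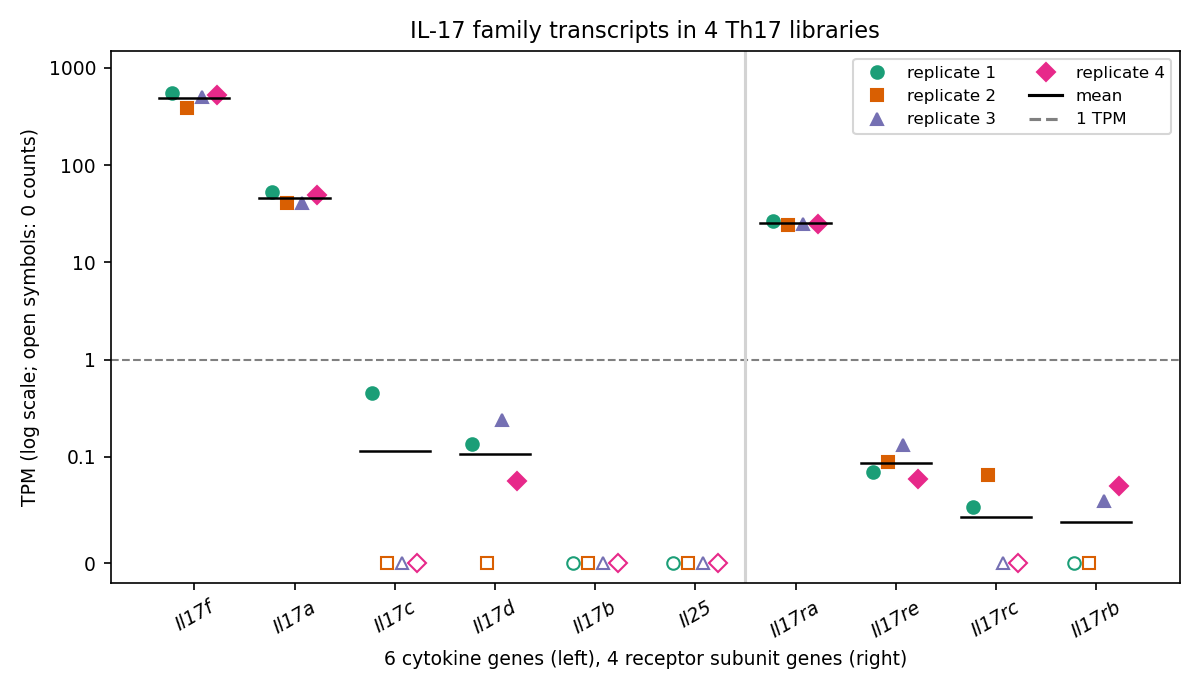
TPM of each of the 10 genes in each of 4 libraries, on a log axis, with the mean as a bar, the dashed line at 1 TPM and open symbols for 0 counts. Il17f, Il17a and Il17ra stood above 1 TPM in all 4 libraries, and the highest value of any other member was 0.457 TPM, for Il17c in replicate 1.

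**Figure D2:**
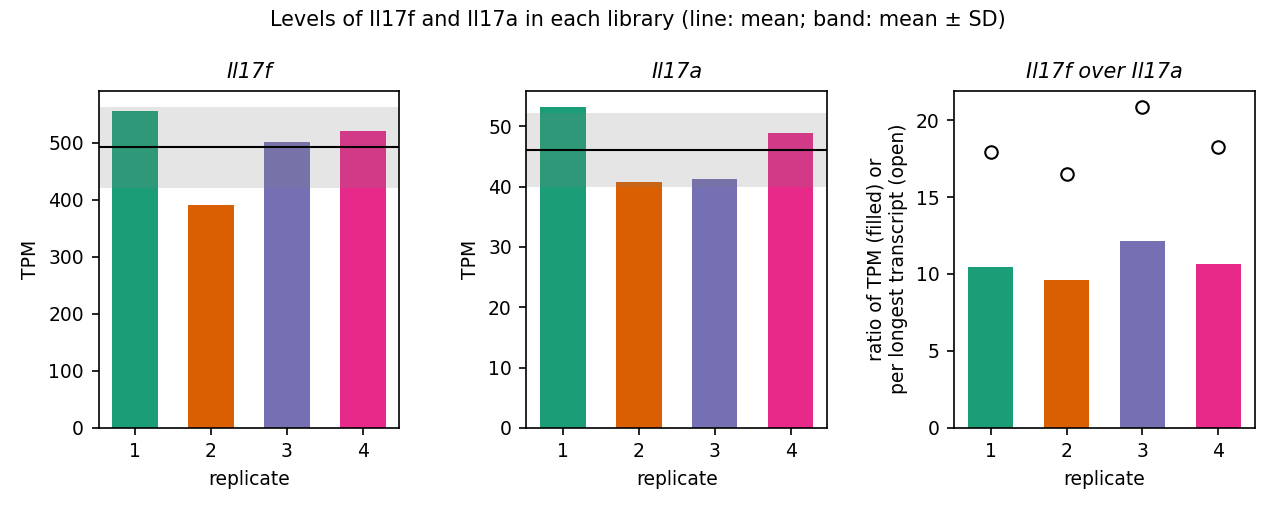
TPM of Il17f and of Il17a by library (bars, with the mean as a line and the mean ± SD as a band, n = 4), and the ratio of Il17f to Il17a. Bars of the right panel use the deposited exon lengths (mean ratio 10.7) and open circles the longest coding transcripts (mean ratio 18.4).

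The other 4 cytokine genes were at or near 0. Il17c (ENSMUSG00000046108.3; mm10 chr8:122422020-122423639), an epithelial cytokine, had 4 counts in replicate 1 and none in replicates 2 to 4, so its mean of 0.114 TPM rests on 1 library at 0.457 TPM. Il17d (ENSMUSG00000050222.10; mm10 chr14:57524829-57543165), whose product is made mainly outside the T cell lineage, had 2, 0, 3 and 1 counts, or 0.134, 0, 0.236 and 0.0562 TPM. Neither gene reached 5 counts in any library, and the ranges of Il17c and Il17d overlap.

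Il25 (ENSMUSG00000040770.5; mm10 chr14:54932695-54935837), the cytokine of tuft cells and type 2 immunity, had 0 counts in all 4 libraries, and so had Il17b (ENSMUSG00000024578.2; mm10 chr18:61687935-61692537). A count of 0 over the 4 libraries allows up to 0.0657 TPM of Il25 and 0.101 TPM of Il17b at 3 counts, limits that cover counting error only. With counts pooled over the 4 libraries, Il17f stood at 509 TPM, which is 7747-fold the limit for Il25 and 5039-fold the limit for Il17b. Such zeros were common: 35.4% of the 21764 protein-coding genes had no count in any library.

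Of the receptor genes, the shared subunit was expressed and its partners were nearly absent. Il17ra (ENSMUSG00000002897.5; mm10 chr6:120463247-120487559) had 2800, 1223, 2221 and 3146 counts, or 26.5, 24.4, 24.6 and 24.9 TPM in replicates 1 to 4. The libraries were close to each other, with replicate 1 slightly above the rest, and the mean was 25.1 ± 0.965 TPM (SD, n = 4; coefficient of variation 3.84%, against 14.5% for Il17f and 13.3% for Il17a). Il17a lay above Il17ra in every library, with ranges of 40.7 to 53.3 and 24.4 to 26.5 TPM that did not overlap.

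Il17rc (ENSMUSG00000030281.16; mm10 chr6:113471427-113483140), the partner that completes the receptor for IL-17A and IL-17F, had 1 count each in replicates 1 and 2 and none in replicates 3 and 4. Il17rb (ENSMUSG00000015966.16; mm10 chr14:29996141-30008896), the partner for IL-25, had 0, 0, 1 and 2 counts. Il17re (ENSMUSG00000043088.16; mm10 chr6:113458484-113470758), the partner for IL-17C, had 5, 3, 8 and 5 counts, or 0.0700, 0.0883, 0.131 and 0.0585 TPM, and was the only one of these 3 partners with a count in every library. Ratios were taken from counts pooled over the libraries and scaled for exon length and depth. By these, Il17ra stood at 1448 times Il17rc (95% counting interval 401 to 11956, on 9390 and 2 counts). It stood at 986 times Il17rb (337 to 4781, on 9390 and 3 counts) and 303 times Il17re (198 to 490, on 9390 and 21 counts). By mean TPM the order of Il17rc (0.0239 TPM) and Il17rb (0.0214 TPM) was the reverse. These exact intervals cover counting error only.

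Within libraries, on the log2(TPM + 1) scale, the difference of Il17ra minus Il17rc was 4.67 ± 0.07 (SD, n = 4), that of Il17ra minus Il17rb 4.68 ± 0.07 and that of Il17ra minus Il17re 4.59 ± 0.08. Each was positive in 4 of 4 libraries, with the smallest p the exact permutation test can give, 0.13 (adjusted 0.150). Il17rc minus Il17re was -0.09 ± 0.06, negative in 4 of 4 libraries (p = 0.13, adjusted 0.150, by the same exact test). Because the partners are near 0, the pseudocount of 1 sets the size of these differences: with 0.1 in its place, Il17ra exceeded Il17rc by 7.70, Il17rb by 7.72 and Il17re by 7.09, and Il17rc minus Il17re was -0.61, with the same signs. Il17rc minus Il17re was -0.18 on log2(CPM + 1), which is not per length, and -0.14 with the longest coding transcripts as lengths. Il17rc and Il17rb did not differ beyond their spread, at 0.00 ± 0.08 with 2 libraries on each side (exact permutation p = 1).

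Each protein-coding gene was tested against a level of 1 TPM with edgeR's quasi-likelihood F test, two-sided, with Benjamini-Hochberg adjustment over all 21764 genes. Above 1 TPM were 3 of the 10 members, Il17f, Il17a and Il17ra, where 45.9% of all genes tested lay above it. Below 1 TPM were the other 7 (2 of them without a count), where 51.5% of all genes lay below it. Nothing is read from these shares about the family as a whole. By group, 2 of 6 cytokine genes and 1 of 4 receptor genes lay above. The highest adjusted p of the 7 was 1.01e-03, for Il17c. DESeq2's Wald test made the same 3 calls above (70.8% of its 14060 genes) and 4 of the 7 below, where it called 23.9% of genes. It did not call Il17c (adjusted p = 0.0711) and gives no p for the 2 members without a count. Counting intervals over the summed libraries do not rest on either test, and the upper 95% limits of the 7 ran from 0.0630 TPM for Il17rc to 0.332 TPM for Il17c. In the order of mean TPM, Il17f, Il17a and Il17ra were separated from each other and from the rest, since neither their ranges over libraries nor their counting intervals met those of the next gene. Below them came Il17c (0.114 TPM), Il17d (0.107), Il17re (0.0870), Il17rc (0.0239), Il17rb (0.0214) and the 2 genes at 0. Each of these overlapped the next by both measures, which is a description and not a test of their order. Among these neighbours, Il17rc still lay below Il17re in every library, on 2 and 21 counts in all. Further apart in the order, Il17re, at 0.0585 to 0.131 TPM, lay above Il17rb, at 0 to 0.0503 TPM, in every library. Their counting intervals, 0.0516 to 0.127 TPM for Il17re and 0.00528 to 0.0749 TPM for Il17rb, still overlapped.

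The levels of Il17f and Il17a spread more over the libraries than those of most genes of at least 10 TPM, and that of Il17ra did not. Among 7800 protein-coding genes of at least 10 TPM, the SD of log2 TPM over the 4 libraries was 0.22 for Il17f, 0.19 for Il17a and 0.05 for Il17ra, against a median of 0.06, and 98.6%, 97.8% and 41.1% of the genes had a smaller SD. All genes that averaged 10 counts or more were tested for variation beyond edgeR's dispersion trend by a one-sided deviance test on edgeR's fit, which called 47 of 12849 genes, or 0.366%, at an adjusted p under 0.05. Of the 3 members that passed this filter, Il17f was called in this edgeR fit (adjusted p = 0.0470), and Il17a (adjusted p = 1.00) and Il17ra (adjusted p = 1.00) were not. The Il17f call lies at the threshold and rests on replicate 2 among others: the adjusted p was 0.9999 without replicate 2, 0.150 without replicate 3, 0.249 without replicate 4 and 0.0216 without replicate 1. Without replicate 2 the mean of Il17f was 526 TPM.

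The Th17 and CD4 T cell markers were not low together in any library. Replicate 2 held the lowest value for 4 of the 10: Il23r, the receptor gene for IL-23, at 10.5 TPM against 14.9 to 16.7 TPM in the other libraries; the chemokine receptor gene Ccr6, at 15.5 TPM against 20.4 to 26.1 TPM; the cytokine gene Il22, at 97.1 TPM against 102 to 143 TPM; and the IL-1 receptor gene Il1r1, at 26.0 TPM against 27.3 to 29.5 TPM. The level of Il22 is uncertain, since 41.0% of its 50-base words are shared with the annotated copy Iltifb. Replicate 4 was the lowest library for 5 markers, among them Cd4, Rora and Il21, and replicate 1 for Cd3e. In replicate 2, Rora and Il21 lay above their means by 0.08 and 0.05 on the log2 scale, and Cd3e and Trac had their highest values. None of the 10 was called in the variation test. Replicate 2 is at the same time the library with the fewest counts, and the part of depth or of cell composition in its low Il17f was not tested.

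**Figure D3:**
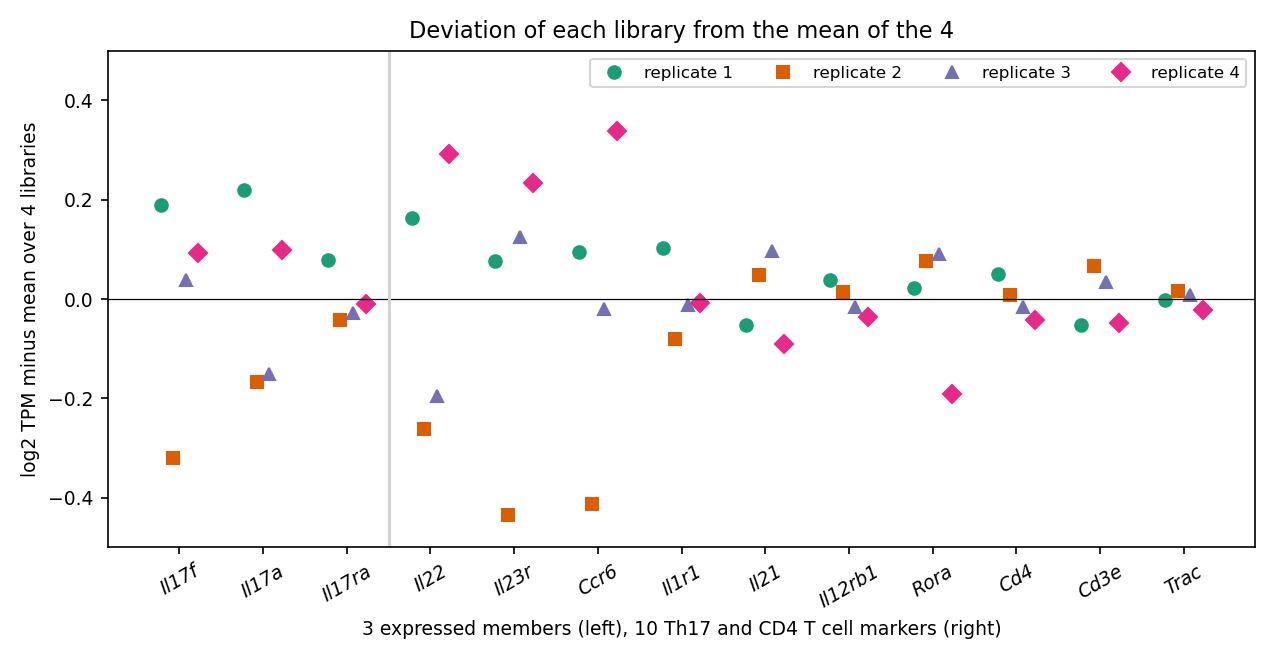
Log2 TPM in each of 4 libraries minus the mean of the 4, for the 3 expressed members (left) and 10 Th17 and CD4 T cell markers (right). Replicate 2 (squares) was lowest for Il17f, at -0.32, for Il17a, at -0.17, and for Il23r and Ccr6, at -0.43 and -0.41, whereas Il17ra, Cd4 and Trac stayed within 0.1 of 0.

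The genes whose pattern over the 4 libraries came closest to that of Il17a and of Il17f were sought among the 7800 genes by the root mean square difference of log2 TPM, each gene centred on its mean. Closest to Il17a were Fam72a (0.007), Tmem175 (0.032), the actin-regulating adaptor gene Baiap2 (0.037), the cell-cycle phosphatase gene Cdc25b (0.039) and Espl1, which encodes separase (0.043). Fam72a had 30.9, 23.4, 23.7 and 28.5 TPM in replicates 1 to 4, high in replicates 1 and 4 as Il17a was. Closest to Il17f were the DNA repair gene Fancb (0.032), Il1rn, which encodes the IL-1 receptor antagonist (0.047), Prickle1, a planar cell polarity gene (0.052), the mitochondrial tRNA synthetase gene Fars2 (0.056) and Rpusd3 (0.060). Il1rn had 36.5, 24.8, 34.1 and 35.8 TPM, low in replicate 2 alone as Il17f was. At 0.122 from each other, Il17f and Il17a were not near neighbours by this measure: Il17f came 749th for Il17a, and Il17a 209th for Il17f. With 4 libraries of unequal depth, many of 7800 genes come close by this measure, and the values are a description.

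Transcripts of the signalling genes downstream of the receptors were present. All 12 genes of the adaptors and kinases lay above 1 TPM, with a median of 31.6 TPM, against a median of 0.411 TPM over all protein-coding genes, of which 45.9% lay above 1 TPM and 35.4% had no count. Traf3ip2, the gene of Act1, had 18.7, 21.1, 19.3 and 21.6 TPM in replicates 1 to 4, a mean of 20.2 ± 1.37 TPM (SD, n = 4). This was of the same order as Il17ra, and the 4 libraries were close together. The highest of the group were Tab2, an adaptor of the TAK1 kinase, at 145 ± 4.96 TPM, Map3k7, which encodes TAK1, at 89.7 ± 2.28 TPM, and Chuk, the gene of the IKKα kinase, at 82.3 ± 3.47 TPM. The lowest was Traf5, an adaptor that Act1 recruits with TRAF2, at 7.71 ± 0.487 TPM.

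Of the 7 transcription and mRNA effectors, 6 lay above and 1 below 1 TPM, beside 45.9% above and 51.5% below over all genes tested. The NF-kappaB genes Nfkb1 (202 ± 1.89 TPM, SD, n = 4) and Rela (160 ± 6.45 TPM) and Nfkbiz, the gene of the IκBζ cofactor of IL-17 responses (97.4 ± 5.18 TPM), stood highest. Cebpd, a C/EBP factor induced by IL-17 in stromal cells, had 0.241, 0.184, 0.0770 and 0.275 TPM and was the lowest. Of the 6 inhibitors, 5 lay above 1 TPM and 1 below (the same shares over all genes apply), led by Traf4 at 136 ± 4.28 TPM, which competes with TRAF6 for Act1, by Zc3h12a at 134 ± 7.84 TPM, the gene of the RNase Regnase-1, and by Tnfaip3 at 105 ± 3.50 TPM, the gene of the deubiquitinase A20. The lowest was Il17rd, a receptor-like member of the family that restrains IL-17 signalling, with 8, 8, 11 and 27 counts and a mean of 0.151 ± 0.0617 TPM. It thus stood with Il17rb, Il17rc and Il17re rather than with Il17ra.

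Most of the genes that IL-17 induces in epithelium and stroma were at or near 0. Of the 15 on the list, 14 lay below 1 TPM, none above and 1 on neither side, where 51.5% of all genes tested lay below. No count in any library was found for 10 of the 15 and for 35.4% of all protein-coding genes. Among the 10 was Cxcl1, a neutrophil chemokine, for which 0 counts allow up to 0.0373 TPM. Ccl20, the ligand of CCR6, was the highest at 0.520, 2.68, 1.15 and 1.01 TPM in replicates 1 to 4, and here replicate 2 was the high library. Next came Cxcl5, another neutrophil chemokine, at 0.218 ± 0.124 TPM (SD, n = 4), and Il6 at 0.213 ± 0.109 TPM. Their summed TPM per library ran from 1.22 to 3.19, compared with 552 to 581 TPM for the adaptors and kinases.

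**Figure D4:**
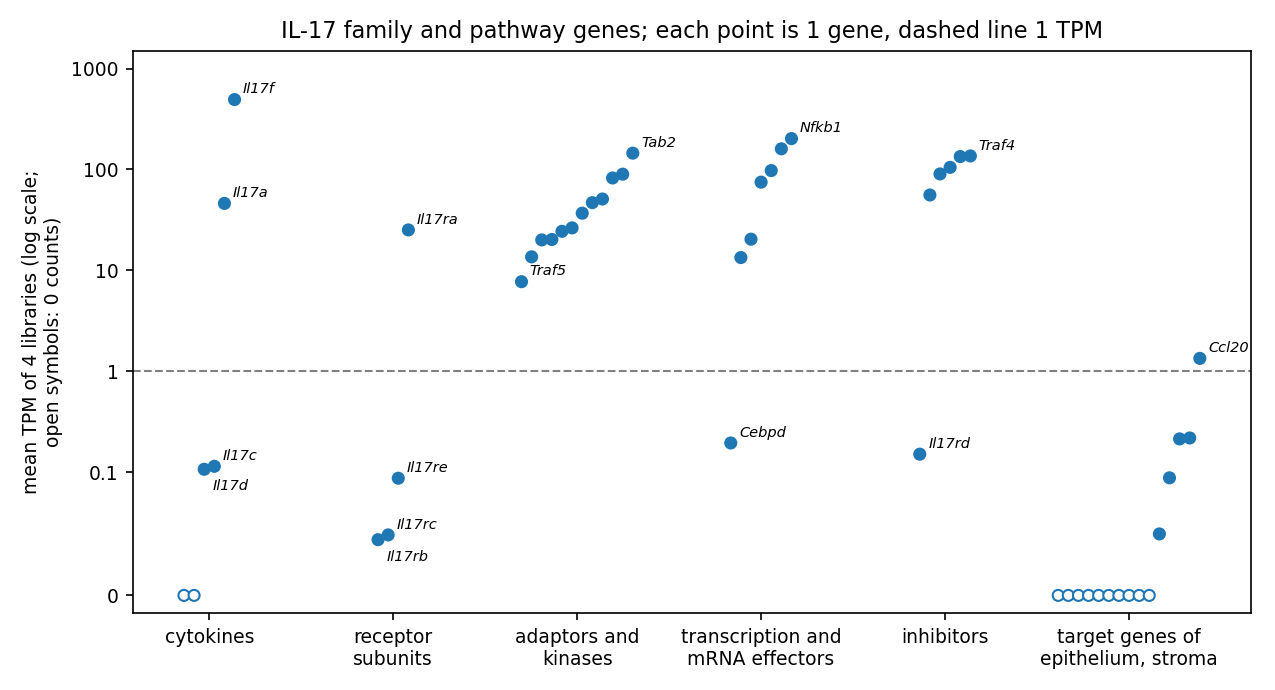
Mean TPM over 4 libraries of each gene of the cytokines, receptor subunits and 4 pathway lists, on a log axis with the dashed line at 1 TPM and open symbols for 0 counts. All 12 adaptors and kinases lie above the line, as do 6 of 7 effectors and 5 of 6 inhibitors, whereas among the 15 target genes Ccl20 alone has a mean above it.

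Il17a and Il17f lie next to each other with 42650 bases between them, on opposite strands and transcribed towards each other. The next coding gene on the Il17a side, Pkhd1, a gene of renal and bile duct epithelium, had 0 counts in all libraries, and so had the 3 noncoding genes between it and Il17a (Mir206, Mir133b and Gm28653). The next on the Il17f side, Mcm3, a subunit of the replicative helicase, lies 12351 bases beyond it and had 733, 696, 698 and 723 TPM, a mean of 713 ± 18.5 TPM (SD, n = 4). Levels thus climbed along the row of 4 coding genes. Mcm3 too was lowest in replicate 2, but its values in replicates 2 and 3 were nearly equal. No exon of another gene overlapped those of Il17a or Il17f, and other transcripts hold 0% and 5.63% of the 50-base words of Il17a and Il17f.

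**Figure D5:**
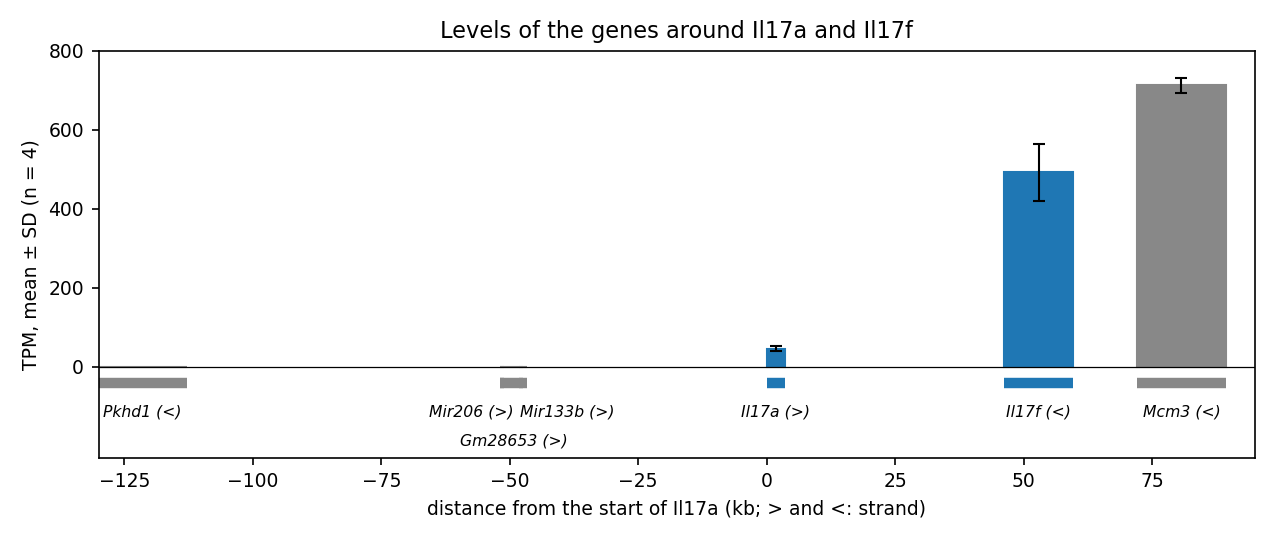
TPM (mean ± SD of 4 libraries, as bar height) of the genes around Il17a and Il17f against distance from the start of Il17a in kb, with the strand of each gene as an arrow. Pkhd1 and 3 noncoding genes had 0 counts, Il17a stood at 46.0, Il17f at 492 and Mcm3 at 713 TPM.

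The receptor genes Il17re and Il17rc are also neighbours, on the same strand with 669 bases between them, and both were nearly silent between expressed genes. Jagn1, a gene of the endoplasmic reticulum needed by neutrophils, lies 10255 bases before Il17re and stood at 64.4 ± 3.15 TPM (SD, n = 4). Creld1 lies 157 bases after Il17rc and stood at 5.76 ± 0.459 TPM. Il17rb is flanked by Actr8, a chromatin remodelling gene at 52.8 ± 2.18 TPM, and by Chdh, the choline dehydrogenase gene, whose annotated start is 127 bases away and which was at 0.366 ± 0.175 TPM. Il17ra lies between the histone demethylase gene Kdm5a at 32.1 ± 2.21 TPM and Tmem121b, which had 2 counts in all.

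The near-silent cytokine genes also had expressed neighbours, with the exception of Il25. Il17c lies between Zc3h18 at 66.2 ± 1.49 TPM and Cyba, a subunit of the phagocyte oxidase, at 279 ± 19.9 TPM (SD, n = 4), with Cyba 1137 bases away. Il17d lies between the cilium gene Ift88 at 6.71 ± 0.599 TPM and the methyltransferase gene Eef1akmt1 at 148 ± 8.59 TPM. Il17b lies between the casein kinase gene Csnk1a1 at 156 ± 5.54 TPM and Pcyox1l at 13.1 ± 2.15 TPM, and 141 of its exon bases overlap the antisense gene Gm38165, whose reads were kept apart by counting on strand. Both neighbours of Il25, Efs and Cmtm5, had 0 counts in all 4 libraries.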

How the data were processed

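Per the file headers, the authors counted read pairs per gene with featureCounts 1.4.6-p4, using exons of GENCODE M13 (mm10), the reverse strand and pairs with both ends mapped. These raw counts are as deposited. The options leave out multi-mapping reads, so genes with near-identical copies lose shared reads. The assay is labelled total RNA-seq, while the linked library protocol is named for poly(A) RNA. An aligner version is not stated there. TPM was computed here over all genes from the counts and the deposited exon lengths. Symbols come from GENCODE M21 (mm10) by Ensembl ID, and promoter windows with their coordinates from RefSeq (GRCm38.p6), matched by symbol for 7 of 10 members.

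For levels, edgeR 4.0.16 (R 4.3.3) set each gene's intercept against an offset of the log count that 1 TPM gives. Its quasi-likelihood steps were run singly, since the packaged function needs a design of more columns. These p-values borrow dispersion from other genes. Variation was the deviance of each gene from its mean under a negative binomial model with the trended dispersion and TMM factors. Differences within libraries were taken on log2(TPM + 1), with exact sign flips in Python 3.11.15. Counting intervals are exact Poisson or Clopper-Pearson at 95% (scipy 1.17.1), the limit for 0 is 3 counts, and both cover counting error only, since reads were not marked by molecule. Depth was 19332509 to 48558772 counts a library.

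Both tests were tried on simulated counts. Among 21764 genes, edgeR found 100% of 200 set to 4 TPM, 100% of 200 set to 0.25 TPM and called 152 of 2000 set to 1 TPM, and DESeq2 1.42.0 found 100% and 95.5% and called 73. Among 12849 genes, the variation test found 78% of 100 genes changed 2-fold in a library and 96% of 100 changed 4-fold, with 3 false calls. Alternatives were limma 3.58.1, DESeq2, levels of 0.5 and 2 TPM, other scalings, count filters, pseudocounts and leaving out each library. Another, the longest coding transcript as length, was chosen after seeing the data.

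The members and gene lists were chosen with earlier results of these data known. The genes named are the members, the 3 highest and the lowest of each pathway list by mean TPM, the coding genes next to each member, the 5 genes of at least 10 TPM closest in pattern to Il17a and to Il17f, and cell type markers. Traf3ip2, the 3 noncoding genes beside Il17a, and Gm38165 were named after their values were seen.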

Additional observations from a re-analysis of the deposited data

Results flagged for a closer look

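In each group of 4 libraries, the gap between the highest or lowest library and its nearest neighbour was divided by the whole range. This was set against Dixon's 95% critical value, which chance passes in about 1 of 20 groups of normally spread values. Of 125 genes checked, 14 passed it, most of them genes with 1 to 4 counts in a single library and none elsewhere. Such genes always pass, because the gap is then the whole range, so that rate does not apply to them.

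One of the 10 members was among them. Il17c was at 0.457 TPM in replicate 1, on 4 counts, and at 0 in replicates 2 to 4. Of the other genes named, Map3k7 stood at 93.1 TPM in replicate 1, against 88.8 TPM in the nearest other library, and Tmem121b, the neighbour of Il17ra, at 0.0710 TPM in replicate 2, on 2 counts, with 0 in the other libraries.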

How the results depend on the processing

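The 3 members above 1 TPM kept their calls under every alternative run: levels of 0.5 and 2 TPM, DESeq2, limma on log2(TPM + 0.1), a filter of 10 counts, protein-coding genes as the TPM denominator, TMM and DESeq2 size factors, longest transcripts as length, and leaving out each library (3 to 3 members). The 7 below 1 TPM kept theirs under the same alternatives (7 to 7 without each library), except that DESeq2 called 4 (Il17c at adjusted p = 0.0711, against 5.68e-06 to 0.0390 under the other alternatives, and no p for Il17b and Il25), and that the filter left none of the 7 to test. Over all genes, 11211 lay below 1 TPM with edgeR, 3363 with DESeq2 and 766 with the filter, both of which leave genes without counts untested. The count of members varying between libraries, 1, was 0 with a minimum mean of 50 counts (Il17f adjusted p = 0.0921) and 0 with a common dispersion (0.0809; 356 genes called, against 47 by the trend, and 24 without replicate 4), and ran from 0 to 1 over the fits without 1 library. Il17rc minus Il17rb changed sign without replicates 1 and 2 (-0.0257 to 0.0281 without each library) and with longest transcripts (-0.00026), both genes being at 3 counts or fewer. The cause of these changes was not tested. Longest transcripts moved the mean of Il17f to 611 TPM, of Il17a to 33.3 TPM and of Il17ra to 20.3 TPM. Differences between genes were paired within a library, but no comparison between groups was possible because there was 1 group. Depth limits the 7 low members, where 1 count equals a large part of the level.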
